A study of Mus musculus with 32 samples.

Results

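Distal H3K4me1 regions without acetylation were taken from *MLL-AF9* leukemias that arose from WT or *Kat2a* KO cells. A region was a peak of H3K4me1 replicate 2 in WT that overlapped a peak of H3K4me1 replicate 2 in KO, with its center more than 5 kb from every annotated transcription start site (TSS). It overlapped no H3K9ac peak of either replicate, no H3K27ac peak of replicate 2 and no H3K4me3 peak of either replicate in WT. Of the 45770 WT peaks, 26043 had a KO partner and 13623 of these were distal. Without H3K9ac, 8703 were left, without H3K27ac 7625, and without H3K4me3 7567, which is 55.5% of the distal shared peaks and 16.5% of all WT peaks. The 7567 regions, called unacetylated here, overlapped 7041 distinct KO peaks. They were selected on these peak calls, so that their H3K4me1 in both genotypes and their lack of acetylation in WT are descriptions and not findings. On either side of the 5 kb limit, the nearest region inside lay 5001 bp from a TSS of *Plxnc1* and was 478 bp wide with a fold enrichment of 4.65, while the nearest outside it lay 4999 bp from a TSS of *Prkacb* and was 164 bp wide with a fold enrichment of 2.88. For comparison, active regions were the 3220 distal shared peaks that overlapped H3K9ac of either replicate and H3K27ac of replicate 2 in WT.

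All donor mice carried *Kat2a* Flox/Flox alleles and received pIpC, an inducer of the interferon response. KO donors were also *Mx1-Cre*+/-, which excises the locus after pIpC in interferon-responsive cells and so in more than blood cells. WT donors were *Mx1-Cre* -/-. Lineage-depleted bone marrow cells of these donors carried the *MLL-AF9* fusion from a retrovirus and were given to irradiated recipient mice. Whole bone marrow at the terminal stage, without sorting, was pooled from 5 recipients of WT and 4 of KO cells, so that residual host cells could be present. Each genotype had 2 replicates of each of 4 marks, 16 ChIP libraries in all, made from 5000000 cells for H3K9ac and H3K4me3 but from 500000 for the other two marks. The replicates of a genotype came from 1 pool, and their spread does not hold the variation between leukemias. H3K4me1 and H3K27ac were read from replicate 2 alone, 1 library per genotype, and differences in them have no replicate check. The depth of the libraries is unknown, since the lists hold no read counts. The WT and KO lists of replicate 2 differed in length, with 45770 and 78042 H3K4me1 peaks and 29757 and 46047 H3K27ac peaks. H3K4me3 peaks within 1 kb of a TSS checked the tissue. All 4 hematopoietic markers had one in every H3K4me3 library, and 4 or 5 of the 5 myeloid markers had one in each. *Mpo*, the gene of myeloperoxidase, had one in both WT and in neither KO library, and the part of this difference in the results was not tested. The 3 T cell, 3 liver and 3 neuronal markers had none. Of the 3 erythroid markers 1 to 3 had a peak, with *Klf1* in all 4 libraries, and of the 3 B cell markers at most 1, *Pax5* in WT replicate 1.

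H3K4me1 marks enhancers, stretches of DNA that raise the transcription of genes at a distance. Enhancers with H3K4me1 and H3K27ac are usually called active, and those with H3K4me1 and no acetylation primed or poised, which in blood are found at genes that a cell has used or may use along its lineage. Kat2a is a histone acetyltransferase of the SAGA and ATAC complexes with H3K9 as a main substrate, whereas H3K27ac is laid down mainly by CBP and p300.

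The sequences of 4 regions are shown because each heads a group described in the text, namely those that gained H3K9ac in both KO replicates, those that gained H3K27ac far from WT acetylation (picked after their values were seen), the widest and the most enriched. They are windows of 300 bases around the WT H3K4me1 summit on the plus strand of GRCm38 (mm10). Capitals mark matches on either strand to GAGGAAGT for PU.1, TTGCNNAA for C/EBP, TGTGGT for RUNX, AGATAA for the GATA factors, TGANTCA for AP-1 or CACGTG for the E-box of Myc. None of these motifs contains another. The window near *Mylip* has 2 RUNX matches, and that in *Grb2* holds 2 RUNX matches, a C/EBP match and an E-box. The windows near *Mcur1* and *Cryaa* hold no match.
near *Mcur1*, largest H3K9ac gain in both KO replicates, chr13:43523775-43524074: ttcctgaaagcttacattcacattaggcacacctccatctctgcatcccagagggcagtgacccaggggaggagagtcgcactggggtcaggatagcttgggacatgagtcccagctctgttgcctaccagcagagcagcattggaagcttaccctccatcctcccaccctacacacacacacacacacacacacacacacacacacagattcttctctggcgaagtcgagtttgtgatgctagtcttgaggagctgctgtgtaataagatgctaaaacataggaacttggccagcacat
near *Mylip*, largest H3K27ac gain far from WT acetylation, chr13:45443168-45443467: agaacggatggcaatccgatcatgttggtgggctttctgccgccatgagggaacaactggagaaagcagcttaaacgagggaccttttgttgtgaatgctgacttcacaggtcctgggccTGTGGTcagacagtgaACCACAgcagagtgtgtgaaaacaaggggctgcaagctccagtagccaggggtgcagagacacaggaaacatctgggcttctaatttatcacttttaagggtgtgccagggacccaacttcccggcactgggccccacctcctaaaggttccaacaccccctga
*Grb2* intron, widest region, chr11:115675460-115675759: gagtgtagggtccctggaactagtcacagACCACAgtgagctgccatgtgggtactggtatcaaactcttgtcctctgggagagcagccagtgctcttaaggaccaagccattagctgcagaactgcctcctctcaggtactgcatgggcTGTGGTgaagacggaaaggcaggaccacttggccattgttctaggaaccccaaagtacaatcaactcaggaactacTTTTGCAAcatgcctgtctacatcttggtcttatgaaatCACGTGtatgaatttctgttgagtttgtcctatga
near *Cryaa*, largest WT H3K4me1 fold enrichment, chr17:31738337-31738636: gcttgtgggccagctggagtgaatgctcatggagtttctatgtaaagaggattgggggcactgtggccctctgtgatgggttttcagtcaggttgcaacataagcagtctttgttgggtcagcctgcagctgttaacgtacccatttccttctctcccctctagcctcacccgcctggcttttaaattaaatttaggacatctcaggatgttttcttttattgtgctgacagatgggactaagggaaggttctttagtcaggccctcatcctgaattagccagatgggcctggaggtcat

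Most unacetylated regions lay inside genes. By their centers, 60.0% (95% Wilson interval 58.9 to 61.1) were in introns, 36.5% (35.5 to 37.6) between genes and 3.46% (3.07 to 3.90) in exons. Active regions had a like distribution, with 57.9% (56.1 to 59.6) in introns, 37.9% (36.3 to 39.6) between genes and 4.22% (3.58 to 4.97) in exons. All intervals on regions cover counting error only and treat regions as independent, which they are not. The median distance to a TSS was 13706 bp (quartiles 8354 and 25259, longest 298598), against 12000 bp in active regions. More than 50 kb from every TSS lay 615 unacetylated regions (8.13%) and 141 active ones (4.38%). Within protein-coding genes under 1 Mb, the median position of a region was at 44.7% of the gene from its 5′ end, and 45.4% for active regions.

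The unacetylated regions were narrower than active regions in the WT list. Their median width was 223 bp (quartiles 178 and 301, range 164 to 1058), and that of active regions was 268 bp (200 and 378), a ratio of 1.20. Over all WT H3K4me1 peaks the median was 215 bp. Width also enters the choice of the classes, since a wider peak has more bases that can overlap an acetylation peak. The part of this in the difference was not tested. At the narrowest width in the list, 164 bp, stood 16.4% of the unacetylated and 9.78% of the active regions. The overlapping peaks of the KO list were wider in both classes, with a median of 600 bp (quartiles 397 and 929) over unacetylated and 891 bp over active regions. With each KO peak counted once, the medians were 557 and 771.5 bp, a ratio of 1.39. The order was the same in the replicate 2 lists of both genotypes. In the replicate 1 lists, which had few peaks at these regions, the medians over unacetylated and active regions were 65 and 58.5 bp in WT and 49 and 54 bp in KO.

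**Figure D1:**
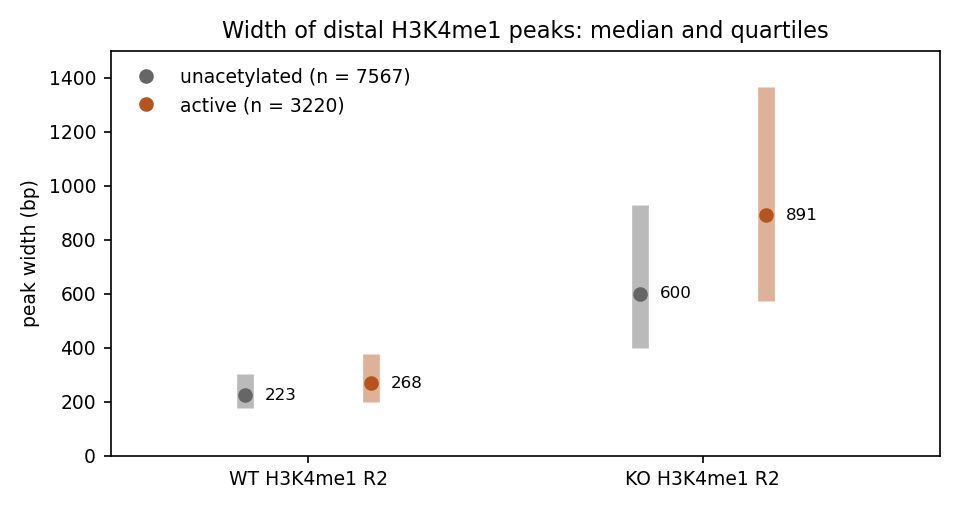
Width of H3K4me1 replicate 2 peaks (vertical axis, bp) at unacetylated and active distal regions, in the WT list and in the overlapping KO list. Points are medians and bars run between the quartiles, and in both lists the active regions were wider (268 against 223 bp in WT, 891 against 600 bp in KO).

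Fold enrichment, the authors' ratio of ChIP signal to background at the summit, differed little between the classes in WT, with medians of 3.69 (quartiles 3.28 and 4.10) in unacetylated and 3.72 (3.28 and 4.43) in active regions. In KO the medians were 3.72 and 4.21. The WT values took only 214 distinct levels among the 7567 regions, and 14.7% stood at the single value 3.69. A q-value of at most 0.05 was reached by 36.1% of the unacetylated and 51.2% of the active regions in WT, and by 89.9% and 96.0% of their partners in KO. The summits of a region in WT and KO lay a median of 179 bp apart (quartiles 86 and 322).

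The widest regions were in an intron of *Grb2*, an adaptor of receptor tyrosine kinases (1058 bp), near *Gsn*, which codes for the actin-severing protein gelsolin (979 bp), and 109624 bp from *Hes1*, a repressor downstream of Notch (976 bp). Those in introns of *Fam129a* (970 bp) and *Map3k14*, the kinase NIK of noncanonical NF-κB signaling (936 bp), followed. The largest fold enrichment in WT was 7.75, at the region 59006 bp from *Cryaa*, with 2.86 in KO. The next were 7.58 near *Smndc1*, 7.12 in *Zswim4*, 6.83 near *Cers6* and 6.68 in *Cmip*, with KO values of 4.26, 2.91, 3.93 and 5.48. All 5 were thus lower in KO than in WT, a comparison of separate lists among regions picked as the highest of one of them. Of these 10 regions, 4 gained H3K27ac in KO, beside 28.2% over all unacetylated regions, with 3.85 near *Gsn*, 3.33 in *Fam129a*, 6.03 in *Zswim4* and 4.64 near *Cers6*.

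Acetylation in WT was often close by. The gap from an unacetylated region to the nearest WT H3K9ac or H3K27ac peak had a median of 2666 bp (quartiles 501.5 and 10728). It was at most 100 bp in 524 regions (6.92%), at most 1 kb in 36.3% and at most 10 kb in 73.5%. For the 20263 other WT H3K4me1 peaks without acetylation or H3K4me3 these shares were 4.95%, 31.1% and 68.8%. Among them, shared peaks within 5 kb of a TSS had 9.62%, 50.2% and 85.4%. Distal peaks without a KO H3K4me1 peak had 2.39%, 18.5% and 55.2%. From an unacetylated distal shared region to the nearest active region the median gap was 94731 bp.

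In KO, 2331 of the 7567 regions (30.8%, 29.8 to 31.9) overlapped an acetylation peak, and 5236 (69.2%, 68.1 to 70.2) had none. H3K27ac made up most of it, with 2133 regions (28.2%, 27.2 to 29.2). H3K9ac was found at 227 regions (3.0%) in KO replicate 1 and at 251 (3.32%) in replicate 2. Either replicate had it at 449 regions (5.93%, 5.42 to 6.49) and both at 29 (0.383%, 0.267 to 0.550). Both marks were present at 251 regions, H3K27ac alone at 1882 and H3K9ac alone at 198. H3K4me3 appeared at 25 regions (0.330%), beside 1.88% over all distal shared regions, some of which had H3K4me3 in WT. Over the other WT H3K4me1 peaks without acetylation or H3K4me3 it appeared at 0.780%. As the 7567 regions had no acetylation or H3K4me3 peak in WT by choice, these marks could only be gained, and nothing was tested on them. In whole marrow, a mark in more cells and a stronger mark per cell cannot be told apart.

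Over all distal shared regions, the members included, the KO shares were 52.5% for H3K27ac, 27.4% for H3K9ac of either replicate, 55.7% for any acetylation and 10.7% for H3K9ac of both replicates. Over the 20263 other WT H3K4me1 peaks without acetylation or H3K4me3, they were 11.8%, 3.61%, 13.9% and 0.237%. The unacetylated distal regions stood between these backgrounds for each measure. The first background includes regions with WT acetylation, and the second includes 9154 distal peaks without a KO H3K4me1 peak. This order is therefore not independent of how the classes were chosen. Of the active regions, 96.4% (95.7 to 97.0) kept an H3K27ac peak in KO and 74.2% (72.7 to 75.7) an H3K9ac peak of either replicate. Unacetylated distal peaks of WT without an H3K4me1 peak in KO had H3K27ac in KO at 6.7%, and shared unacetylated peaks within 5 kb of a TSS at 25.5%. The latter had H3K9ac of either KO replicate at 7.69% and of both at 0.641%, above the 5.93% and 0.383% of the distal regions.

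**Figure D2:**
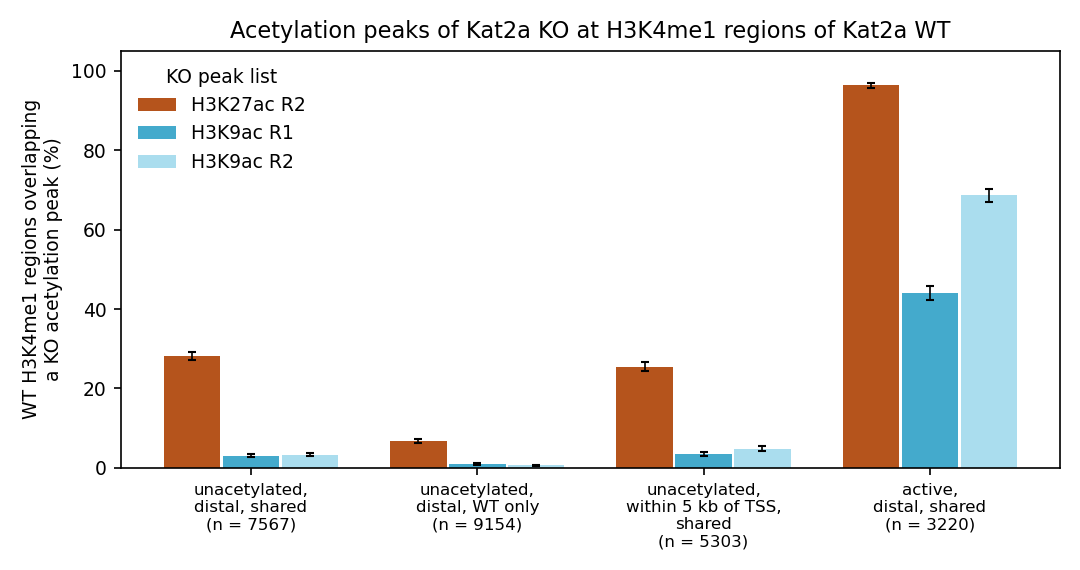
Share of WT H3K4me1 regions (vertical axis, %) that overlapped a KO peak of H3K27ac replicate 2, H3K9ac replicate 1 or H3K9ac replicate 2, in 4 classes of region with their numbers. Bars carry 95% Wilson intervals (counting error only). In unacetylated distal shared regions H3K27ac reached 28.2% and each H3K9ac replicate at most 3.32%, against 96.4% for H3K27ac in active regions.

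The same rule was applied with the genotypes exchanged. It gave 4675 KO H3K4me1 regions without acetylation in KO, of which 614 (13.1%, 12.2 to 14.1) overlapped an acetylation peak in WT. By mark, WT H3K27ac was present at 163 (3.49%) and WT H3K9ac of either replicate at 506 (10.8%), with both replicates at 65 (1.39%). H3K27ac was thus the more frequent mark on the KO side (28.2% against 3.49%) and H3K9ac on the WT side (10.8% against 5.93%). The ratio of regions with acetylation in KO only to those with acetylation in WT only was 2.35 by share. The size of this ratio depended on the lengths of the H3K27ac lists. When only the strongest H3K27ac peaks of KO were taken, as many as in WT, the shares were 19.3% and 17.7% (ratio 1.09), with H3K27ac at 15.5% and 6.20%. With equal list lengths for every mark the ratio was 1.53, with H3K9ac of either KO replicate at 7.71%. The WT H3K9ac lists were longer than those of KO (33605 and 31677 peaks, against 27657 and 28861). No WT H3K9ac share was taken at equal lengths. KO H3K4me1 peaks were also wider, with a median of 425 bp over the list against 215 bp in WT. The part of peak width in these shares was not tested.

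H3K27ac in KO was more frequent near acetylation of WT. It was present at 50.1% (47.8 to 52.3) of the 1891 regions with a gap of up to 500 bp, at 31.5% (29.3 to 33.8) of the 1617 from there to 2 kb, at 19.2% (17.6 to 21) of the 2053 up to 10 kb and at 14.1% (12.6 to 15.6) of the 2006 beyond. H3K9ac of either replicate fell from 10.6% in the nearest bin to 3.29% in the farthest, without a steady order between them (4.51% and 5.36%). The share with H3K27ac also differed with the width of the KO H3K4me1 peak, from 17.4% in the narrowest quartile of regions to 42.8% in the widest. It ranged less with the WT width (24.9% to 31.6%) and was close in introns (27.5%), between genes (29.4%) and in exons (27.1%).

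**Figure D3:**
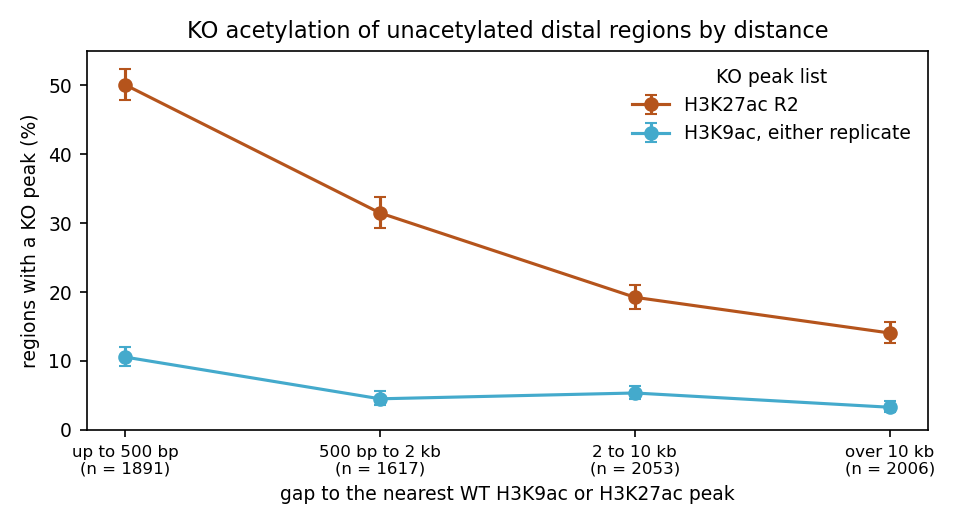
Share of unacetylated distal regions (vertical axis, %) with a KO peak of H3K27ac replicate 2 or of H3K9ac in either replicate, by the gap to the nearest WT acetylation peak (horizontal axis, 4 bins with their numbers of regions). Bars are 95% Wilson intervals. H3K27ac declined from 50.1% to 14.1% across the bins.

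Gained H3K27ac peaks were split by their overlap with H3K27ac of WT. In 470 of the 2133 regions (22.0%, 20.3 to 23.8) the KO peak also overlapped a WT H3K27ac peak beside the region. In 1663 (78.0%) it did not, and 282 of these (13.2% of the 2133) had no WT acetylation peak within 10 kb. Of all KO H3K27ac peaks, 49.8% overlapped a WT peak. The 444 distinct KO peaks that also overlapped a WT peak had a median fold enrichment of 5.51 and a median width of 1302.5 bp, against 6.30 and 1280 bp for the KO peaks over active regions. The 1627 others were weaker and narrower, with 3.53 and 384 bp, below the medians of the whole KO list (4.12 and 505 bp). The KO H3K9ac peaks over unacetylated regions had median fold enrichments of 3.0 and 3.33 in the replicates, against 3.69 and 4.39 over active regions.

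The 5 largest H3K27ac gains all belonged to KO peaks that also overlapped a WT H3K27ac peak, with gaps of 43 to 202 bp. Of these, 3 are described here. A region 7656 bp from *Wdfy4*, which acts in cross-presentation by dendritic cells, lay under a KO peak 2147 bp wide with a fold enrichment of 14.8. The fold enrichment was 14.1 in an intron of *Gfod1* and 13.6 in an intron of *Itpr1*, a calcium channel of the endoplasmic reticulum. In each of these 5 places the WT H3K4me1 fold enrichment was between 2.05 and 3.69.

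Gains of H3K27ac without WT acetylation within 10 kb were smaller, and these regions were picked after their values were seen. The largest was 7.24 at chr13:45443165-45443384, 52348 bp from *Mylip*, a ubiquitin ligase that degrades the LDL receptor. Introns of *Hmbox1* (6.03), *Nrg1*, a ligand of ErbB receptors (5.87), and *Daam1*, a formin of the Wnt pathway (5.51), came next together with a region between genes on chromosome 3 (5.73). Their gaps to WT acetylation ran from 12076 to 59873 bp.

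H3K9ac gained in both KO replicates was strongest at chr13:43523866-43524073, 22150 bp from *Mcur1*, a regulator of the mitochondrial calcium uniporter. Its fold enrichment was 4.29 in replicate 1 and 6.80 in replicate 2, with H3K27ac at 11.1. A region within both *P2ry14*, a receptor for UDP-glucose, and *Med12l* had 4.42 and 4.04. Introns of *Myh9*, the heavy chain of nonmuscle myosin IIA (3.95 and 4.73), *Tiam1*, an activator of Rac (4.25 and 3.93), and *Rin3*, an activator of Rab5 (3.78 and 4.39), followed. All 5 also had H3K27ac in KO, and all lay 51 to 184 bp from WT acetylation.

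H3K9ac in WT and KO can be compared over replicates only where the replicate counted did not choose the regions. The rule was therefore applied with H3K9ac of 1 WT replicate, and H3K9ac peaks were counted in the other replicate of each genotype. The regions were still chosen by WT lists (H3K9ac of the first replicate, H3K27ac and H3K4me3), with no such bar in KO, so the genotypes were not on equal terms. Among the 8129 regions without H3K9ac in WT replicate 2, replicate 1 had a peak at 6.91% (562 regions) in WT and at 3.70% (301) in KO. Among the 8232 regions without H3K9ac in WT replicate 1, replicate 2 had a peak at 8.08% (665) in WT and at 4.80% (395) in KO. The WT shares were higher in both replicates and did not overlap the KO shares. WT had a mean of 7.50% ± 0.824 (SD, n = 2). The KO mean was 4.25% ± 0.775 (SD, n = 2), and KO minus WT came to -3.25 percentage points. The two-sided exact permutation test gave p = 0.33, the smallest value that 2 libraries against 2 allow, so the difference could not pass 0.05. The WT H3K9ac lists are also longer (33605 and 31677 peaks, against 27657 and 28861 in KO). With equal numbers of peaks per library of a mark the difference was -1.23 percentage points (exact permutation p = 0.67).

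**Figure D4:**
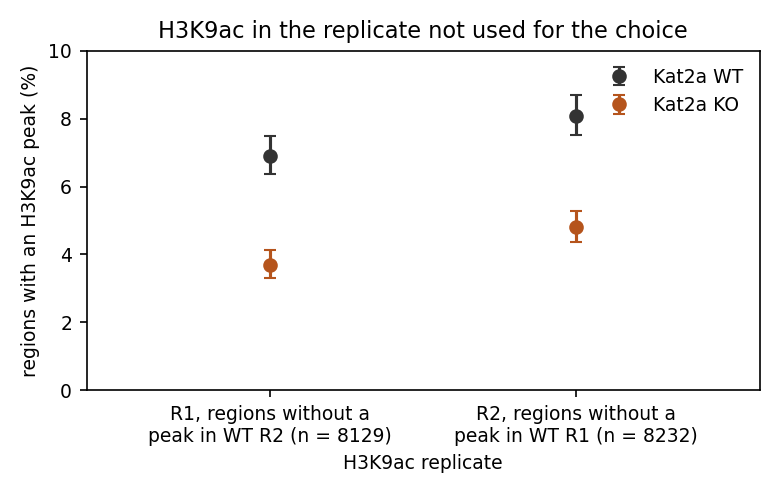
Share of distal unacetylated H3K4me1 regions (vertical axis, %) with an H3K9ac peak in the replicate that was not used to choose them, for WT and KO in replicates 1 and 2 (horizontal axis). Bars are 95% Wilson intervals. WT stood at 6.91% and 8.08%, KO at 3.70% and 4.80%.

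Of 21938 protein-coding genes, 1894 (8.63%) held the center of at least 1 unacetylated region, 239 held 5 or more and 37 held 10 or more. These genes contained 4413 of the 7567 regions (58.3%). They were long, with a median of 85.4 kb against 17.4 kb over all protein-coding genes, and of the 5007 genes of at least 50 kb, 26.7% held a region. The most, 53, fell in *Gm20388*, a readthrough model of 4434.88 kb that spans 71 other protein-coding genes, *Ankrd11* among them, and says little about a single gene. *Ptpre*, a receptor-type tyrosine phosphatase of myeloid cells, followed with 20 regions in 148.8 kb, of which 8 had an acetylation peak in KO. *Asap1*, which acts on Arf GTPases and the cytoskeleton, had 18 (5 with KO acetylation), and *Cmip* 17 (6). *Mvb12b*, a subunit of the ESCRT-I sorting complex, the chromatin regulator *Ankrd11* and the transcription factor genes *Etv6* and *Cux1* had 16 each, with KO acetylation at 4, 4, 10 and 9. *Rin3* and *Arid1b*, a subunit of the BAF chromatin remodeling complex, had 15 each, with 7 and 1. Over all unacetylated regions, 30.8% had an acetylation peak in KO. Counts depended on how regions were assigned, and by the nearest TSS in place of the gene body *Cux1* had 2, *Arid1b* 4, *Etv6* 5, and *Ptpre* and *Ankrd11* 10 each.

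In *Ptpre* the WT H3K4me1 fold enrichment ran from 2.88 to 6.03 with a median of 3.71, and the KO values from 2.52 to 6.58 with a median of 4.25. The 7 *Ptpre* regions with H3K27ac in KO had fold enrichments of 3.08 to 11.2 for that mark. *Mvb12b* and *Etv6*, with 16 unacetylated regions each, differed in their active ones, of which *Mvb12b* had 1 and *Etv6* had 14. Genes with the most regions acetylated in KO were ranked among protein-coding genes under 1 Mb, and were picked after the values were seen. First came *Etv6* with 10, *Cux1* and *Foxp1*, a forkhead factor, with 9 each, and *Ptpre* with 8. *Rin3*, *Susd6*, *Fam107b* and *Runx1* had 7 each, with ties ordered by regions per length of gene. The limit left out longer gene models, among them *Gm20388* with 13 and *Fgfr2* with 7. *Foxp1* had 12 regions in all, *Fam107b* 14, *Susd6* 11 and *Runx1* 9.

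**Figure D5:**
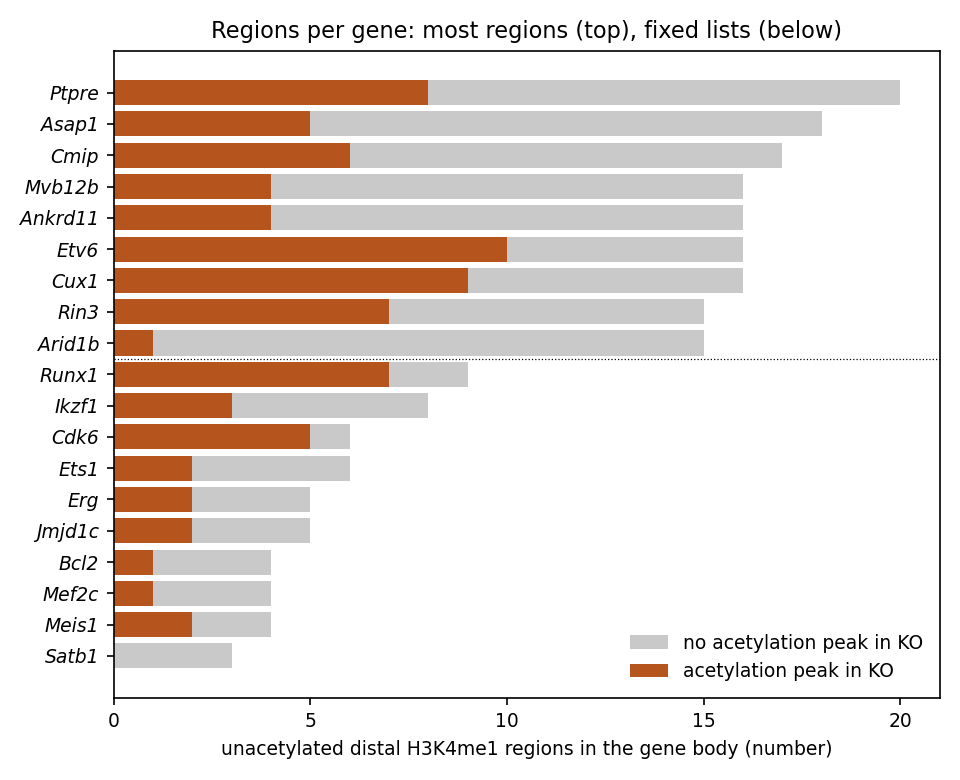
Number of unacetylated distal H3K4me1 regions with their center in the gene body (horizontal axis), split by acetylation in KO. Above the dotted line stand the genes with the most regions, without the readthrough model *Gm20388*, and below it the genes of the lists with the most regions. *Etv6* had 10 of 16 regions with KO acetylation and *Arid1b* 1 of 15, beside 30.8% over all unacetylated regions.

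Genes of the *MLL-AF9* program and of leukemia stem cells held regions in 7 of 15 cases, 26 regions in all, of which 12 had acetylation in KO. Over all unacetylated regions this share was 30.8%, and over all genes of at least 50 kb 26.7% held a region, beside a median length of 139.2 kb in this list. *Cdk6*, a cell cycle kinase required by *MLL*-rearranged leukemia, had 6, *Jmjd1c*, a demethylase-family protein, 5, and *Meis1*, the cofactor of Hoxa9, *Mef2c* and *Bcl2*, an inhibitor of apoptosis, 4 each. *Hoxa7*, *Hoxa9* and *Hoxa10* held none, and each is under 10 kb long. In *Cdk6*, 5 of 6 regions had KO acetylation. Their H3K27ac fold enrichments in KO were 3.57, 3.78, 5.36 and 9.26, with H3K9ac at 4.55 in replicate 2 beside the first of these values, and the fifth had H3K9ac alone, 2.94 in replicate 1. All 6 *Cdk6* regions lay within 735 bp of WT acetylation, and the gene also held 17 active regions. In *Meis1*, 2 of 4 regions had KO acetylation. One carried H3K27ac at 3.65 and H3K9ac at 3.03 in replicate 1, and the other H3K9ac at 6.22 in replicate 1. *Mef2c* had H3K27ac at 1 of 4 regions (3.06).

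Transcription factors of stem and progenitor cells held 31 regions in 4 of 11 genes, 15 of them acetylated in KO, 10 of these in *Etv6* alone. The share over all unacetylated regions was 30.8%, and 8.63% of all protein-coding genes held a region. Over all genes of at least 50 kb 26.7% held one, beside a median length of 54.4 kb in this list. The 4 genes were *Etv6* with 16, *Ikzf1* (Ikaros) with 8, *Erg* with 5 and *Ikzf2* with 2. The 16 *Etv6* regions spread over introns between chr6:134047103 and chr6:134208236, with WT fold enrichments of 2.47 to 5.12. H3K27ac was present in KO at 9 of them, from 2.67 to 9.55, and 1 further region had H3K9ac alone (3.09 in replicate 2). In *Ikzf1*, the 3 regions that gained H3K27ac (4.64, 4.06 and 4.06) were neighbors between chr11:11762816 and chr11:11764258, and they lay 21621 to 22869 bp from WT acetylation. *Erg* gained H3K27ac at 2 of 5 regions (3.49 and 7.61).

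Among myeloid transcription factors, 2 of 12 genes held 10 regions, beside 8.63% of all protein-coding genes with a region. *Runx1*, a master regulator of blood stem cells, had 9 and *Spi1*, the gene of PU.1, had 1 without acetylation in KO. In *Runx1*, 7 of 9 regions gained H3K27ac, beside 28.2% over all unacetylated regions, and none gained H3K9ac. The fold enrichments of these 7 were 2.07, 3.49, 3.53, 3.78, 4.12, 4.47 and 5.17. Their gaps to WT acetylation ran from 74 to 2971 bp. The 2 *Runx1* regions without a gain lay 3333 and 18714 bp from it.

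Myeloid effector and receptor genes held a region in 1 of 15 genes (*Itgam*), and erythroid and megakaryocyte genes in 0 of 10. Over all protein-coding genes 8.63% held a region, and over those of at least 50 kb 26.7%. T cell genes held 10 regions in 3 of 10 genes, *Ets1* with 6, *Satb1* with 3 and *Tox* with 1. Of these 10 regions, 2 in *Ets1* gained H3K27ac, beside 28.2% over all unacetylated regions. B cell genes held 1 region each in *Ebf1* and *Foxo1*, neither with acetylation in KO. None of these T cell and B cell genes held an active region. These counts stand beside very different gene lengths, and lists were not tested against each other. Medians per list were 7.35 kb for myeloid transcription factors, 10.8 kb for myeloid effectors and 13.5 kb for erythroid and megakaryocyte genes. They were 38.4 kb for B cell genes, 95.2 kb for T cell genes and 139.2 kb for the *MLL-AF9* program.

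Regions often lay close together. With members within 10 kb of each other joined, there were 4873 runs, and 3307 regions (43.7%) stood alone while 4260 (56.3%) had a neighbor. Runs of 5 or more numbered 134. The longest held 12 regions each, in 17.8 kb of *Inpp4a*, a phosphoinositide phosphatase gene (5 with H3K27ac in KO), and in 26.1 kb of *Ralgps1* (2). *Ptprj* followed with 10 and *Vav3*, a guanine nucleotide exchange factor, with 9. A run of 8 in *Mvb12b* covered only 4.73 kb. Neighbors in a run share their surroundings and sometimes their KO peak, and were not independent.

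On autosomes the density ran from 2.04 regions per Mb on chromosome 3 to 4.30 on chromosome 19. Chromosome X carried 25 regions, 0.146 per Mb, and Y none. X held 3 active regions. It also held few peaks of the whole H3K4me1 lists (0.671% in WT and 0.584% in KO), whereas the replicate 2 lists of the other marks had 1.49% to 2.41% of their peaks there.

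The summit windows of unacetylated regions had a median GC content of 47.0%, against 50% in active regions and 47.7% over all WT H3K4me1 peaks. A mean of 3.15 CpG per window compared with 3.90 in active regions, and 8.66% against 5.00% had none. GATA matches were in 15.5% (14.7 to 16.3) of the unacetylated and 12.4% (11.3 to 13.6) of the active windows, C/EBP matches in 15.0% (14.2 to 15.8) and 12.2% (11.1 to 13.4), and PU.1 matches in 4.22% (3.79 to 4.69) and 2.92% (2.39 to 3.56). Over all WT H3K4me1 peaks these shares were 14.4%, 13.8% and 3.66%, and in 32851 RefSeq promoter windows of the same length 11.2%, 10.8% and 3.20%. RUNX matches were at close shares in both classes (25.1% and 25.2%, 24.0% over all peaks, 16.8% in promoters), and AP-1 (8.76% and 9.47%, 9.09%, 7.81%) and E-box matches (4.37% and 5.09%, 4.74%, 7.15%) had overlapping intervals in the classes. Regions that gained H3K27ac in KO had PU.1 matches in 3.14% (2.48 to 3.97) and GATA matches in 14.4%, against 4.58% (4.05 to 5.18) and 15.9% in those without acetylation in KO. Matches depend on base composition, which differed between the classes, and its part in these shares was not tested.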

How the data were processed

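ChIP-seq peak lists of 4 histone marks were used from *MLL-AF9* leukemias, 2 replicates per mark and genotype. The authors aligned reads to mm10 with BWA and called peaks with MACS2, per the labels. Each deposited list holds 1 library, not pooled replicates, and gives for every peak a score, its fold enrichment (a ratio) and p-value and q-value as −log10. The methods name a q-value of 0.05, but the deposited lists reach a p-value of 0.01 and were used whole. Input libraries were not analysed here.

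The members, gene lists and tests were chosen with earlier results of these data known. Overlap was at least 1 bp, and GENCODE M21 gave TSS, exons and introns. Sequences came from the RefSeq copy of GRCm38. Replicate 1 of H3K4me1 and H3K27ac holds few peaks that pass this q-value and did not choose regions. Shares carry 95% Wilson intervals, and held-out H3K9ac was compared with an exact permutation test and, paired by replicate number, an exact sign-flip test. No test was run over regions, which are not replicates.

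Named were the 10 protein-coding genes with the most regions, up to 4 genes per list (all where counts tied), and the first 5 regions by KO H3K27ac, by the lower KO H3K9ac replicate, by width and by WT fold enrichment. Some named regions and 1 list are not reported here. Other named genes were chosen after their values were seen. Alternatives were a q-value limit, a 50% overlap, limits of 2 and 10 kb, a 1 kb margin, equal list lengths and single replicates. Python 3.11.15, numpy 2.4.6, pandas 2.3.3, scipy 1.17.1 and matplotlib 3.10.9 were used. The interval code was tested on simulated data and matched bedtools 2.31.1 in 50 of 50 comparisons each of overlap and distance.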

Additional observations from a re-analysis of the deposited data

Results flagged for a closer look

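The lists of replicate 1 of H3K4me1 and H3K27ac played no part in the choice of the 7567 unacetylated regions or in the comparisons. Replicate 1 of H3K4me1 had a peak at 1.93% (146 regions) in WT and at 0.819% (62 regions) in KO, and replicate 1 of H3K27ac in WT at 0.489% (37 regions). A count of 0 would allow up to 0.0396%. Replicate 1 of H3K27ac in KO stood below this, with 2 regions (0.0264%). Active regions had peaks of the first 3 lists at 4.84%, 1.34% and 2.95%. Over all WT H3K4me1 peaks of replicate 2 these shares were 1.94%, 0.841% and 0.935%, so the unacetylated regions did not exceed them. A q-value of at most 0.05 was reached by only 0, 5 and 13 peaks of these 3 lists. Inputs were not analysed here, so no control list gives the share that background peaks would reach.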

How the results depend on the processing

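Alternatives were run for the number of regions, the share in introns, the width ratio, the KO shares of H3K27ac and H3K9ac, the held-out H3K9ac difference, the ratio of gain to loss and the counts in the 10 genes. The 2 ratios and the held-out difference did not change direction, and counts and shares have none. Limits were 1.5 times for counts, the counting interval for shares and ratios, and the sign for the held-out difference. Single genes apart, 44 recomputations stayed within these limits and 33 did not. The gap, KO width, motif and fold enrichment comparisons were not rerun. The number of regions fell to 2647 with a q-value of at most 0.05, to 4999 beyond 10 kb of a TSS and to 4821 with no WT acetylation within 1 kb. The share in introns was 61.5% beyond 2 kb, 58.0% beyond 10 kb, 58.7% with the 1 kb margin and 55.3% with protein-coding genes only. The width ratio of active to unacetylated regions was 1.24 (q-value), 1.19 (50% overlap), 1.19 (10 kb) and 1.12 (1 kb margin). H3K27ac in KO was at 32.9% (q-value), 26.1% (50% overlap), 18.4% (1 kb margin) and 19.5% (equal numbers of peaks), and H3K9ac of either KO replicate at 7.52%, 4.91%, 4.29% and 7.71%. H3K9ac in both KO replicates was at 0.383%. The ratio of gain to loss of acetylation was 1.96 with the 1 kb margin and 1.53 with equal numbers of peaks. With equal numbers of H3K27ac peaks only, an alternative chosen after seeing the data, H3K27ac was at 15.5% and the ratio was 1.09. Leaving out replicate 1 or 2 of H3K9ac gave 29.4% to 31.3% for H3K27ac, 3.86% to 4.22% for H3K9ac and 3.10 to 3.47 for the ratio. The 10 genes with the most regions summed to 202 regions, with those of *Ankrd11* counted again in *Gm20388*, to 79 with the q-value limit, to 107 with the 1 kb margin and to 95 when regions went to the nearest TSS. Counts of the 10 single genes stayed within 1.5 times of the reported value in 72 recomputations and did not in 28. By construction fewer peaks or sites enter under the q-value, 10 kb and margin settings, and more sites under the 2 kb limit (10254 regions). Otherwise the cause was not tested. The held-out H3K9ac difference ranged from -3.70 to -1.23 percentage points.

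Replicate numbers are shared between the genotypes without a label that ties them to a batch. With the replicate number as a block, the H3K9ac difference was -3.25 percentage points (exact sign-flip p = 0.5, the smallest that 2 pairs allow). The lists hold no read counts, and a region without a peak may lie below an unknown limit of detection.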
